A study of Mus musculus with 6 samples.

Results

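Activator protein 1 (AP-1) transcription factors were examined in cytotoxic T lymphocytes (CTL) that did or did not maintain the transcription factor KLF2. The genes were 9 AP-1 subunits: *Fos*, *Fosb*, *Fosl1* and *Fosl2* of the Fos family, *Jun*, *Junb* and *Jund* of the Jun family, and *Batf* and *Batf3*. They were chosen by name, and every probe set of the Affymetrix Mouse Genome 430 2.0 array that is annotated to 1 of these genes and no other was taken. This gave 13 probe sets for 9 of the 18193 genes on the array, with 2 probe sets each for *Fosl1*, *Fosl2*, *Jun* and *Jund* and 1 for each of the others.

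All cells came from C57BL/6 mice aged 8 to 12 weeks that carry the P14 transgenic T cell receptor, which recognises a peptide (gp33-41) of the virus LCMV. Splenocytes were stimulated with the peptide for 48 h, received a retrovirus 18 h after its addition, spent a further 48 h in interleukin-2 and were sorted at day 4 for GFP fluorescence. The control group, evGFP, received a vector with GFP alone, and the other group, GFP-KLF2, a vector for GFP fused to KLF2. Both groups are therefore activated, transduced and sorted, and the fusion protein was made from a viral vector and not from the cells' own *Klf2* gene. Each group has 3 arrays, labelled as biological replicates 1, 2 and 3. Each array was made from 250 ng of RNA. The question was which AP-1 genes differ in RNA level when CTL fail to lose KLF2.

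AP-1 is a dimer of proteins with a basic region, which touches DNA, and a leucine zipper, which holds the dimer together. Fos proteins pair with Jun proteins, while Jun proteins can also pair with each other. Batf and Batf3 lack the large transactivation domains of Fos and pair with Jun proteins, often beside an IRF protein on composite DNA elements. In T cells the antigen receptor and MAP kinases switch on Fos and Jun, and AP-1 then acts with NFAT on cytokine genes. KLF2 is a zinc finger protein of quiescent T cells, and proteins of its family bind CACCC sequences.

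The data are intensities after RMA normalisation, given here as log2 intensity. Where a gene has several probe sets, the brightest on average stands for it, and a difference of 1 on this scale is a 2-fold difference. Values of different genes are not compared, since each probe set has its own response. A gene is said to have risen or fallen where limma, fitted to all 45037 probe sets that are not array controls, gave an adjusted p (Benjamini-Hochberg) under 0.046. Of the 9 subunits 2 rose in GFP-KLF2 CTL, *Fosl2* and *Junb*, where 6.22% of all genes rose. *Batf3* was the 1 that fell, where 8.35% of all genes fell. The other 6 did not pass. Over the probe sets, 2 of 13 rose and 1 fell, beside 4.76% and 6.39% of all probe sets. The median log2 fold change of the 9 genes was 0.49, beside -0.008 over all genes. In these bulk samples a smaller share of cells with a transcript and less of it per cell cannot be told apart.

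The arrays of the groups did not overlap for 7 of the 9 subunits, where 34.9% of all genes showed no overlap. For 6 of these 7 the GFP-KLF2 arrays were the higher ones and for *Batf3* the lower. *Fosb* and *Jund* overlapped. The labels do not state that replicate numbers pair the arrays of the groups. They were taken to do so here, since evGFP and GFP-KLF2 arrays with the same number deviated from their group means alike. With the replicate number as a block in limma, 5 subunits rose, *Fos*, *Fosl1*, *Fosl2*, *Jun* and *Junb*, where 8.58% of all genes rose. *Batf3* fell in that paired fit too, where 12.1% of all genes fell. The share of all called probe sets that were higher in GFP-KLF2 was 42.7%, and 58% after cyclic loess normalisation of the same values, under which 5 subunits rose and *Batf3* did not pass.

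**Figure D1:**
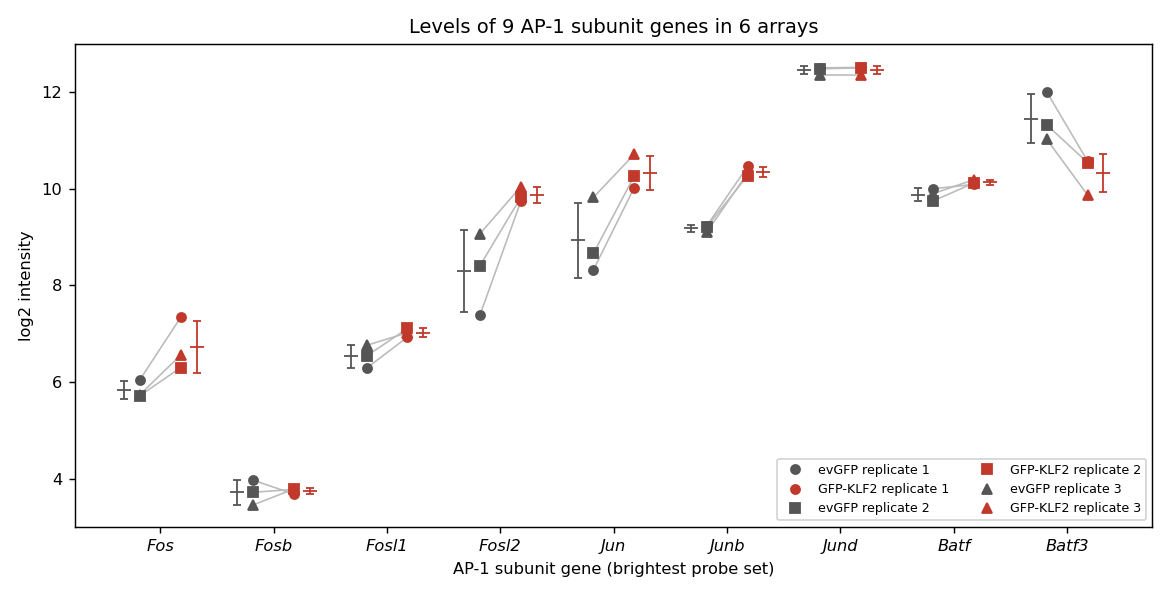
Log2 intensity (vertical axis) of the brightest probe set of each AP-1 subunit in evGFP arrays (grey) and GFP-KLF2 arrays (red), with a symbol for each replicate number, grey lines joining arrays of the same number, and mean ± SD of 3 arrays as bars beside the points. The red points lie above all grey points for *Fos*, *Fosl1*, *Fosl2*, *Jun*, *Junb* and *Batf* and below them for *Batf3*, and the groups overlap for *Fosb* and *Jund*.

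Before the single genes, the arrays as such are described. Correlation between arrays over all probe sets was 0.993 to 0.996 within groups and 0.982 to 0.990 between them. The *Klf2* probe set read 10.99, 10.37 and 8.80 in the evGFP arrays and 9.83, 9.67 and 8.74 in the GFP-KLF2 arrays (log2 fold change -0.64, adjusted p = 0.552). According to the study this probe set detects a region of the transcript that the vector lacks, so it does not check the labels. Of 7 measured CD8 T cell markers *Cd8b1* passed (0.45, adjusted p = 0.0107), as did *Cd247* in the paired fit (0.39, adjusted p = 0.0189, unpaired 0.0481), and *Cd8a* was at 12.14 ± 0.09 and 12.00 ± 0.10. Markers of B cells (5 genes), myeloid cells (6), dendritic cells (5), NK cells (2) and erythroid cells (2) gave no call by limma. At an unadjusted p under 0.05 in limma were 2 of these 20 genes, *Ms4a1* and *Cd79a* of B cells. The share of all genes at that cut is not given here, so this count is not read as a result about B cells. The summed B cell markers were at 8.14 to 8.28 in evGFP and 8.15 to 8.70 in GFP-KLF2 arrays. The summed level of the 4 CD4 T cell markers was 8.23 to 8.41 in evGFP and 8.54 to 8.68 in GFP-KLF2 arrays, with a call for *Zbtb7b* (0.45, adjusted p = 0.0429) and *Cd4* itself at 6.63 ± 0.17 and 6.74 ± 0.05. The 3' minus 5' log2 difference of the *Actb* controls, a sign of RNA quality, was 0.111 to 0.121 in evGFP and 0.077 to 0.084 in GFP-KLF2 arrays. That of the *Gapdh* controls was -0.179 to -0.116 in evGFP and -0.169 to -0.139 in GFP-KLF2 arrays, so there the groups overlapped. The part of these differences in the results on AP-1 was not tested.

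*Fos* encodes the founding partner of Jun and is a classic immediate early gene. Its log2 intensity was 6.05, 5.72 and 5.74 in evGFP replicates 1, 2 and 3, and 7.34, 6.30 and 6.56 in GFP-KLF2 replicates 1, 2 and 3. Every GFP-KLF2 array was above every evGFP array, and GFP-KLF2 replicate 1 stood highest. The means were 5.84 ± 0.19 and 6.73 ± 0.54 (SD, n = 3), a difference of 0.90 (standard error 0.25, 95% confidence interval 0.31 to 1.48), and the adjusted p of 0.0616 in limma did not pass. Within replicate numbers the differences were 1.29, 0.58 and 0.81, and the paired fit gave an adjusted p of 0.00923. With 1 array left out the gene passed only without GFP-KLF2 replicate 2 (adjusted p = 0.045). The log2 fold change ranged from 0.59 without GFP-KLF2 replicate 1 to 1.11 without GFP-KLF2 replicate 2.

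*Fosb*, a close relative of *Fos* that is also induced early after stimulation, was near the lower end of the array. It read 3.97, 3.72 and 3.46 in the evGFP arrays and 3.68, 3.78 and 3.79 in the GFP-KLF2 arrays. In all 6 arrays this was under the lower quartile of the array, which was 4.18 to 4.25. The log2 fold change was 0.03 (95% confidence interval -0.27 to 0.34, adjusted p = 0.917), and a difference of a transcript this dim cannot be resolved on these arrays.

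*Fosl1* encodes Fra-1, a Fos protein without the strong activation domain of Fos. Its brighter probe set read 6.29, 6.54 and 6.76 in evGFP and 6.93, 7.11 and 7.02 in GFP-KLF2 replicates 1, 2 and 3. The groups did not overlap, with the evGFP arrays more spread (SD 0.24) than the GFP-KLF2 arrays (SD 0.09). The change was 0.49 (95% confidence interval 0.20 to 0.78, standard error 0.13). Its adjusted p was 0.0463, just outside the threshold, and 0.0204 in the paired fit. The dimmer probe set gave 0.15 (95% confidence interval -0.07 to 0.36, adjusted p = 0.401), and there the groups overlapped.

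*Fosl2* encodes Fra-2, the other Fos-related antigen, and had the highest log2 fold change of the 9 genes at its brighter probe set, though not without evGFP replicate 1, where it was 1.13 and that of *Junb* 1.20. Its RefSeq promoter window, from 250 bases before to 50 bases after the start of the transcript, is shown here because the gene rose, and the windows of *Jun*, *Junb* and *Batf3* follow below for the members with the other changes over 2-fold. Capitals mark CACCC or its reverse complement GGGTG and, in *Jun*, TGACATCA (GRCm38.p6, chr5:32136222-32136521, plus strand).
*Fosl2*: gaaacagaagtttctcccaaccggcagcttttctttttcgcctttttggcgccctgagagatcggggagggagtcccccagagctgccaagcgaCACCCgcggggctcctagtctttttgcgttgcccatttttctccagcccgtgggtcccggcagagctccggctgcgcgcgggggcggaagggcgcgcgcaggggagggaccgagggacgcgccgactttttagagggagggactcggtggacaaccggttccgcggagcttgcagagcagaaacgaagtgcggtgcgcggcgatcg
The brighter *Fosl2* probe set read 7.39, 8.41 and 9.07 in evGFP replicates 1, 2 and 3 and 9.74, 9.82 and 10.04 in GFP-KLF2 replicates 1, 2 and 3. All GFP-KLF2 arrays were higher and lay close together, whereas evGFP replicate 1 was well below the others of its group. The rise from 8.29 ± 0.85 to 9.87 ± 0.16 was 2.98-fold (log2 fold change 1.58, standard error 0.37, 95% confidence interval 0.72 to 2.44, adjusted p = 0.034). Differences within replicate numbers were 2.35, 1.41 and 0.97. *Fosl2* kept its call when evGFP replicate 1 or 3 was left out, but not without evGFP replicate 2 or any 1 of the GFP-KLF2 arrays (adjusted p from 0.0102 to 0.0931 over all 6), nor with an intensity trend and robust prior (adjusted p = 0.0716).

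A second *Fosl2* probe set did not show this. It read 6.67, 6.87 and 6.80 in evGFP and 6.61, 6.74 and 6.83 in GFP-KLF2 arrays, and the groups overlapped. Its log2 fold change of -0.05 (95% confidence interval -0.26 to 0.16, adjusted p = 0.808) has an interval that does not meet that of the brighter probe set. Per the array annotation the dimmer probe set was designed against the RefSeq mRNA of *Fosl2* and the brighter one against an expressed sequence tag, and where either lies in the gene was not examined here. The rise thus holds for the sequence read by the brighter one.

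**Figure D2:**
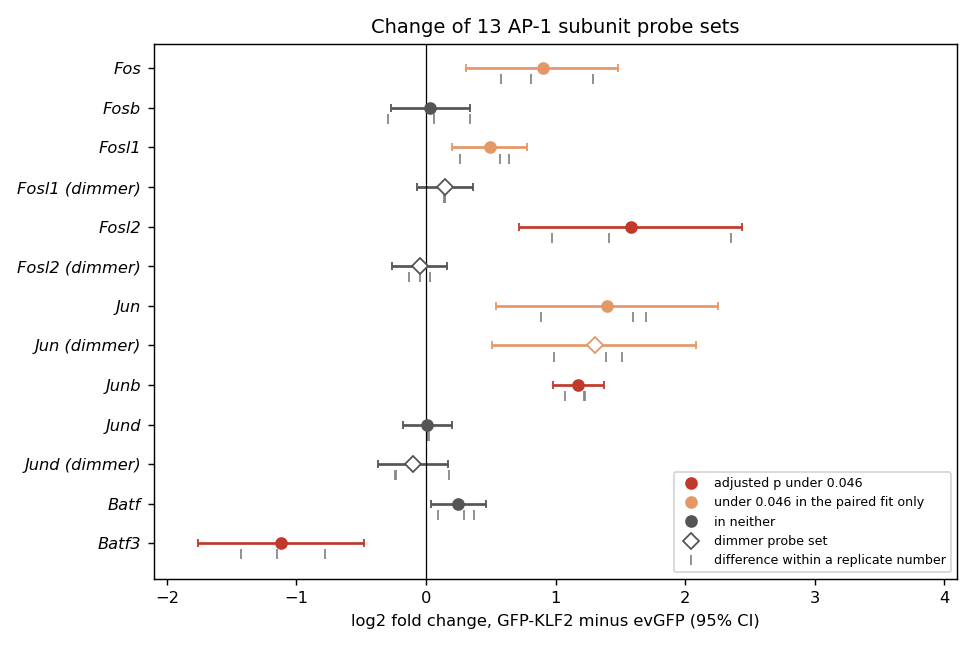
Log2 fold change of GFP-KLF2 over evGFP (horizontal axis) with its 95% confidence interval for all 13 AP-1 subunit probe sets, with open diamonds for the dimmer probe set of a gene and grey ticks for the difference within each replicate number. Red marks an adjusted p under 0.046, and orange one under 0.046 in the paired fit only. *Fosl2*, *Junb* and *Batf3* are red, and the probe sets of *Jun* lie together at 1.40 and 1.30 while those of *Fosl2* lie apart at 1.58 and -0.05.

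*Jun* encodes c-Jun, which dimerises with Fos and Batf proteins and with itself. Its promoter is known for an AP-1-like element, TGACATCA, through which Jun acts on its own gene, and this sequence occurs in its window beside GGGTG, with which it shares the bases TG (GRCm38.p6, chr4:95052173-95052472, minus strand).
*Jun*: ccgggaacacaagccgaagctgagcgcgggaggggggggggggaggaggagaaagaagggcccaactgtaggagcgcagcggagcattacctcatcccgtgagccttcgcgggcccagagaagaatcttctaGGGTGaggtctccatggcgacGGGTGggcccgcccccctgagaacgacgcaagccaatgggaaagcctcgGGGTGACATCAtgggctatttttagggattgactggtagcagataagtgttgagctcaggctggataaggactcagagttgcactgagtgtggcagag
The brighter *Jun* probe set read 8.32, 8.66 and 9.82 in evGFP replicates 1, 2 and 3 and 10.02, 10.26 and 10.71 in GFP-KLF2 replicates 1, 2 and 3. The groups did not overlap, but evGFP replicate 3 came within 0.21 of the lowest GFP-KLF2 array. The means of 8.93 ± 0.78 and 10.33 ± 0.35 differed by 1.40 (2.63-fold, standard error 0.37, 95% confidence interval 0.54 to 2.25, adjusted p = 0.0504), outside the threshold. All pairs had the same direction, with differences of 1.70, 1.60 and 0.89, and the adjusted p in the paired fit was 0.00378. Leaving out evGFP replicate 3 raised the log2 fold change to 1.84 and brought the adjusted p to 0.00559, while no other single array left out led to a pass.

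The second *Jun* probe set gave the same picture with its own readings. It read 6.92, 7.03 and 8.13 in evGFP and 8.31, 8.54 and 9.12 in GFP-KLF2 arrays. Again evGFP replicate 3 was the highest of its group. The log2 fold change was 1.30 (95% confidence interval 0.51 to 2.08), with an adjusted p of 0.0487, and 0.00181 in the paired fit.

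*Junb*, which encodes a Jun protein prominent in activated T cells, had the lowest adjusted p of the 9 genes. Its promoter window holds CACCC and GGGTG once each (GRCm38.p6, chr8:84978699-84978998, minus strand).
*Junb*: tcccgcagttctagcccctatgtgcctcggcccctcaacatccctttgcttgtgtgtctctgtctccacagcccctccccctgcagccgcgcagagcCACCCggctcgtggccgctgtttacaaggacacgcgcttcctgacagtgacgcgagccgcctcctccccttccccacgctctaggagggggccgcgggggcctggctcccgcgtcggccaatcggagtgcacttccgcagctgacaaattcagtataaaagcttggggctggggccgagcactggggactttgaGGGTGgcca
*Junb* read 9.23, 9.21 and 9.10 in evGFP replicates 1, 2 and 3 and 10.46, 10.27 and 10.32 in GFP-KLF2 replicates 1, 2 and 3. Each group was tight, and the groups lay 1.05 apart at their nearest arrays. The rise from 9.18 ± 0.07 to 10.35 ± 0.10 was 2.25-fold (log2 fold change 1.17, standard error 0.08, 95% confidence interval 0.98 to 1.37, adjusted p = 0.000672). The pairs differed by 1.23, 1.07 and 1.22. Among the 9 subunits *Junb* alone passed with every array left out in turn, with adjusted p values of 0.00212 to 0.00672.

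*Jund*, the Jun gene that is typically expressed without stimulation, had nearly equal readings in the groups. These were 12.50, 12.48 and 12.36 in evGFP replicates 1, 2 and 3 and 12.51, 12.50 and 12.36 in GFP-KLF2 replicates 1, 2 and 3. Its log2 fold change of 0.01 had a 95% confidence interval of -0.18 to 0.20 (adjusted p = 0.956). A dimmer probe set gave -0.10 (95% confidence interval -0.37 to 0.17, adjusted p = 0.693).

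*Batf* encodes a partner of Jun proteins that is needed for effector differentiation of CD8 T cells. It read 10.00, 9.75 and 9.90 in evGFP and 10.09, 10.12 and 10.19 in GFP-KLF2 arrays. The GFP-KLF2 arrays were all higher, by a gap of 0.09 at the nearest arrays. The log2 fold change of 0.25 (95% confidence interval 0.04 to 0.46, standard error 0.09) did not pass (adjusted p = 0.123, paired fit 0.107), and after cyclic loess it was 0.35 and passed (adjusted p = 0.0418).

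*Batf3*, best known for its role in cross-presenting dendritic cells and also expressed in activated T cells, was the one subunit that was lower with KLF2. Its promoter window holds GGGTG 4 times, a number of CACCC or GGGTG that 3.1% of all windows reach or exceed. That share is not matched for G and C, which make up 75.7% of this window beside a median of 52.7% (GRCm38.p6, chr1:191098164-191098463, plus strand).
*Batf3*: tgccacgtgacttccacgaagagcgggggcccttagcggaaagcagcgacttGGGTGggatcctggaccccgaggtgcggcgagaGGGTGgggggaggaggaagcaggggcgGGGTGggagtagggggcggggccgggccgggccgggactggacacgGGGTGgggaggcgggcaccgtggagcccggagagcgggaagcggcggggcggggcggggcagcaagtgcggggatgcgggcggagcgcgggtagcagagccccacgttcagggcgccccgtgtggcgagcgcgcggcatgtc
*Batf3* read 12.00, 11.32 and 11.02 in evGFP replicates 1, 2 and 3 and 10.57, 10.54 and 9.87 in GFP-KLF2 replicates 1, 2 and 3. All GFP-KLF2 arrays were below all evGFP arrays, with a gap of 0.45. The fall from 11.45 ± 0.50 to 10.33 ± 0.39 was 2.17-fold (log2 fold change -1.12, standard error 0.28, 95% confidence interval -1.76 to -0.48, adjusted p = 0.0406). Differences within replicate numbers were -1.43, -0.78 and -1.15, and the adjusted p in the paired fit was 0.00374. Leaving out evGFP replicate 3 kept the call (adjusted p = 0.0314), while leaving out any other array ended it (up to 0.0989), as did cyclic loess (0.0598) and an intensity trend with a robust prior (0.0746). The 5 measured markers of dendritic cells, which express *Batf3*, summed to 8.40 to 9.01 in evGFP and 8.39 to 8.88 in GFP-KLF2 arrays. In this order of groups they were *H2-Ab1* (7.52 ± 0.76 and 7.67 ± 0.68), *Flt3* (6.30 ± 0.13 and 6.44 ± 0.09), *Siglech* (6.02 ± 0.05 and 6.03 ± 0.10), *Zbtb46* (5.22 ± 0.20 and 5.19 ± 0.19) and *Xcr1* (4.00 ± 0.13 and 4.12 ± 0.17). *Xcr1* was near the lower quartile of the arrays and the others lay above it. The part of dendritic cells in the fall of *Batf3* was not tested.

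Replicate 3 stood alike in both groups for 4 of these genes. The arrays numbered 3 were the highest of their group for *Jun* and *Fosl2* and the lowest for *Batf3* and *Jund*. For *Junb* the spread of either group was at most 0.10 (SD).

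Members of a family were then compared with each other, as the log2 difference between 2 members within an array, set between groups by a 2-sided exact permutation test. There were 10 pairs, and with 3 arrays a group the smallest p is 0.1. For 6 pairs the groups did not overlap and the exact p was 0.1 (adjusted over the 10 pairs, 0.167), so none could pass. Of all pairs of genes on the array 39% showed no overlap. The 6 include 2 pairs with *Fosb*, which say nothing of that gene since it lay at the lower end of the array, and leave 4 without it. Within the Jun family the difference in log2 fold change was 1.39 between *Jun* and *Jund* and 1.16 between *Junb* and *Jund*, with all 3 pairs of arrays of one sign. *Jun* and *Junb* differed by 0.23, with overlap (exact p = 0.7). Within the Fos family the difference in change was -1.09 for *Fosl1* minus *Fosl2*, without overlap, whereas *Fos* and *Fosl2* overlapped (exact p = 0.5). The changes of *Batf* and *Batf3* had opposite signs, 0.25 and -1.12. They differed by 1.37, without overlap, and the within-number values were 1.52, 1.15 and 1.44.

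**Figure D3:**
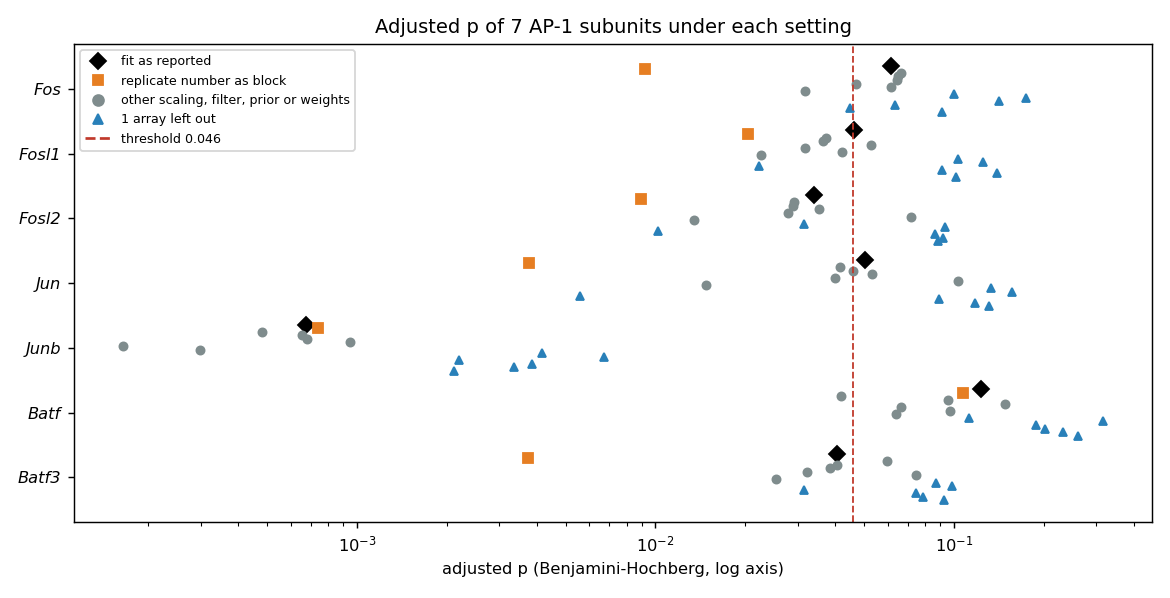
Adjusted p (horizontal log axis) of 7 subunits in the fit as reported (black diamond), with the replicate number as a block (orange square), under other scaling, filters, priors or weights (grey circles) and with 1 array left out (blue triangles), beside the threshold of 0.046 (dashed). Every point of *Junb* lies left of the threshold, the points of *Fosl2*, *Jun*, *Fosl1*, *Fos* and *Batf3* lie on either side of it, and *Batf* crosses it under cyclic loess.

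The promoter windows were searched on both strands for the sequence TGACTCA of the AP-1 site, the sequence TGACGTCA of the cyclic AMP response element, CACCC, and the serum response element, which drives *Fos* in many cells. RefSeq windows were found for 8 of the 9 members, all but *Fosl1*. None of the 8 held TGACTCA, TGACGTCA or a serum response element within its 300 bases. Elements outside the windows, or with other letters, would be missed by this search, so it does not show that a gene lacks them. These occur in 5.2%, 1.79% and 1.63% of all 32851 windows. CACCC in either orientation was in 7 of the 8 and in 57.5% of all windows, with 4 copies for *Batf3*, 3 for *Jun*, 2 each for *Junb* and *Jund*, 1 each for *Fosl2*, *Fosb* and *Batf*, and none for *Fos*. TGACATCA, searched after the *Jun* sequence had been seen, was in 3.62% of all windows. The share of G and C was 75.7% in the *Batf3* window, 68.3% in *Fosb*, 65.3% in *Junb*, 64.7% in *Fosl2*, 60.0% in *Jun*, 58.7% in *Fos*, 49.7% in *Batf* and 46.7% in *Jund*, beside a median of 52.7% over all windows. A match shows only that the letters are there.

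*Fos* and *Batf* lie on the same stretch of chromosome 12 (GRCm38.p6, *Fos* from 85473890 and *Batf* to 85709087), with *Jdp2*, another AP-1-like gene, between them. Between the groups *Jdp2* differed by 0.13 (adjusted p = 0.9). *Atf3*, a stress-induced bZIP gene within 100 kb of *Batf3* on chromosome 1, had -0.08 (adjusted p = 0.841). The 16 measured genes within 100 kb of *Junb* ranged from -0.49 to 0.45 and those near *Fosl2*, 2 in number, were at 0.29 and 0.04. None of these 18 passed in limma, while 7 were at an unadjusted p under 0.05. No share of all genes is given here for that cut. In the paired fit 1 of the 18 fell, *Gcdh* near *Junb* (-0.37, adjusted p = 0.0407). Of 5 measured neighbours of *Batf3*, *Nsl1*, a kinetochore gene, fell (-0.47, adjusted p = 0.0297). In the paired fit 3 of these 5 fell, *Nsl1*, *Flvcr1* (-0.55, adjusted p = 0.0205, unpaired 0.0563) and *Tatdn3* (-0.32, adjusted p = 0.0403, unpaired 0.117). Over all members 61 neighbouring genes were measured, of which 3 rose and 4 fell, and 3 rose and 9 fell in the paired fit. Of all genes 6.22% rose and 8.35% fell, and 8.58% rose and 12.1% fell in the paired fit. The window of 100 kb was chosen after values had been seen.

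The genes whose pattern over the 6 arrays was most like that of a called subunit were found among 10510 genes by the root mean square difference of log2 values, each centred on its mean. For *Fosl2* they were *Mir22hg*, the host transcript of a microRNA (difference 0.129), *Ccr2*, a chemokine receptor (0.148), and *Hrc*, a calcium-binding protein (0.171). For *Junb* they were *Fkbp5*, a co-chaperone of steroid receptors (0.071), *Nab1*, a corepressor of EGR factors (0.081), and *Tle6*, of the Groucho family (0.085). *Batf3* was closest to *Cnksr3*, a signalling scaffold (0.128), *Lrrc28* (0.151) and *Capn3*, a protease (0.179). Since the measure includes the difference between the groups, the likeness is a description.

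Other genes of the AP-1 pathway were taken from lists of known roles, chosen with earlier results of these data known. Among 21 measured bZIP genes that can pair with AP-1 proteins or compete for their sites, 2 rose and the other 19 did not pass (median 0.15). This is beside 6.22% of all genes that rose and 8.35% that fell. *Bach2*, a repressor that competes for AP-1 sites in CD8 T cells, rose by 0.52, from 8.47 ± 0.06 to 8.99 ± 0.04 (adjusted p = 0.00632). Its 2 other probe sets were at 0.57 and -0.16, and 1 of them passed. *Maff*, a small Maf protein, rose by 0.55 on the log2 scale (adjusted p = 0.0303, up to 0.101 with 1 array left out, and under the threshold then only without evGFP replicate 3). With the paired fit 4 of the 21 rose, these and the small Maf gene *Mafk* (0.30, adjusted p = 0.0412, unpaired 0.0662) and *Maf*, a large Maf factor (1.08, adjusted p = 0.0392). The share of all genes that rose in the paired fit was 8.58%. *Maf* had the largest spread of the list without pairing (standard error 0.65, adjusted p = 0.384).

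Of 12 measured kinases and ubiquitin ligases that act on AP-1 proteins, 2 rose and the other 10 did not pass (median 0.14). Among all genes 6.22% rose and 8.35% fell. *Fbxw7*, a ubiquitin ligase component that directs c-Jun to degradation, rose by 0.87 (adjusted p = 0.00269). *Rps6ka3*, a kinase of the RSK family downstream of ERK, had 0.41 (adjusted p = 0.0387), but lost its call with any array left out. The Jun kinases *Mapk8* and *Mapk9* were at -0.29 and 0.23 and did not pass (adjusted p = 0.166 and 0.208).

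Of the 9 factors known to induce *Fos* and *Jun*, 1 rose and 2 fell (median -0.01), where 6.22% of all genes rose and 8.35% fell. *Srf*, the serum response factor, fell from 8.48 ± 0.07 to 8.11 ± 0.01 (-0.37, adjusted p = 0.0201), and kept its call only without evGFP replicate 3 when 1 array was left out. *Mrtfb*, a coactivator of Srf, fell by 1.14 on the log2 scale at its brightest probe set (adjusted p = 0.00206). Its 2 other probe sets were at 0.03 and 0.07 and did not pass. *Mef2d*, a MADS box factor that acts on *Jun*, rose by 0.74 (adjusted p = 0.0141, up to 0.0581 without evGFP replicate 1 or 2).

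Of the 9 factors that share composite sites with AP-1, 2 rose and the other 7 did not pass (median 0.12). Here too the shares of all genes were 6.22% that rose and 8.35% that fell. *Irf8*, a partner of Batf proteins, read 9.88, 10.17 and 10.51 in evGFP and 11.01, 10.85 and 10.87 in GFP-KLF2 arrays (0.72, adjusted p = 0.0251). The related *Irf4* was at -0.28 (adjusted p = 0.665). *Runx3*, a factor of the CD8 lineage, rose by 0.45 (adjusted p = 0.0225). When 1 array was left out, *Irf8* and *Runx3* passed only without evGFP replicate 3, with adjusted p up to 0.0866 and 0.077.

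Genes with known AP-1 sites in their control regions gave 6 that rose of 21 measured, while the other 15 did not pass (median 0.08). *Ifng*, the cytokine interferon gamma, rose most, by 2.79, from 5.95 ± 1.15 to 8.74 ± 0.50 (adjusted p = 0.0171). *Plaur*, the urokinase receptor, rose by 2.13 (adjusted p = 0.0151), *Csf2*, the cytokine GM-CSF, by 2.09 (0.0157) and *Cd69*, an early activation marker, by 1.38 (0.0174). The remaining 2 were *Fasl* (1.12, adjusted p = 0.00705) and *Cd44* (0.78, adjusted p = 0.00333), which kept their calls with any array left out. Another *Cd44* probe set was at 0.02. *Il4*, a cytokine of helper T cells, went the other way, from 5.87 ± 0.58 to 5.05 ± 0.50. Its log2 fold change of -0.82 did not pass without pairing (adjusted p = 0.171) and passed in the paired fit (adjusted p = 0.0091), which otherwise left the count at 6. *Il2*, a textbook target of AP-1 with NFAT, was at 3.94 ± 0.10 and 4.00 ± 0.08, under the lower quartile of the arrays. With *Mmp3* and *Mmp13* it made 3 of the 21 genes that were under this quartile in all 6 arrays. *Tnf* at 0.11 (adjusted p = 0.472) and *Gzmb* at -0.01 (0.959) did not pass. *Ifng*, *Plaur* and *Cd69* did not pass without evGFP replicate 2 or GFP-KLF2 replicate 1 or 2 (adjusted p up to 0.0631, 0.0587 and 0.0654), nor did *Csf2* without evGFP replicate 1 or 2 or GFP-KLF2 replicate 1 (up to 0.0614). Over all 18193 genes 6.22% rose and 8.35% fell, so 14.6% were called in either direction. The paired fit had 8.58% of all genes rising and 12.1% falling. Nothing in these values ties a gene to an AP-1 protein.

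**Figure D4:**
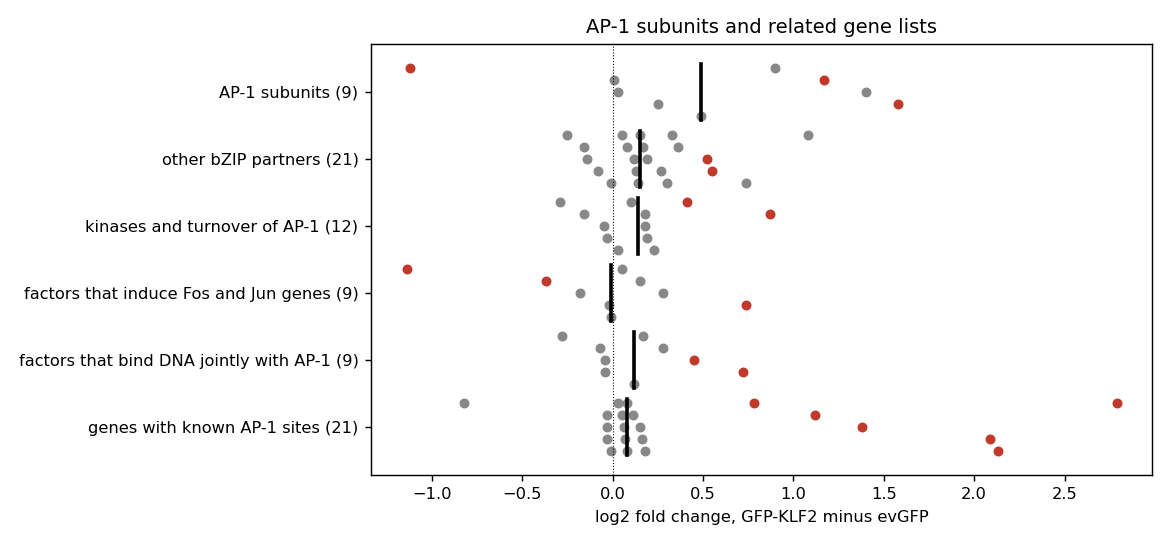
Log2 fold change of GFP-KLF2 over evGFP (horizontal axis) for the 9 AP-1 subunits and 5 related gene lists, a point per measured gene (number in brackets), red where the adjusted p was under 0.046, with the list's median as a black bar. The bar is at 0.49 for the subunits and between -0.01 and 0.15 for the other lists, and the farthest red points belong to genes with known AP-1 sites, up to 2.79.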

How the data were processed

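RNA of 6 sorted CTL samples was hybridised to Affymetrix Mouse Genome 430 2.0 arrays. RMA and limma were used by the authors, and the versions are not given in the sources used here. They deposited 1 intensity per probe set and array on a linear scale. Raw array files were not used here. Log2 was taken, 64 control probe sets were removed, and limma 3.58.1 in R 4.3.3 was fitted with 1 constant per group, 2-sided, with Benjamini-Hochberg adjustment over 45037 probe sets. Of these 34945 are annotated to 1 gene, 932 to several and 9160 to none. RMA values are already scaled between arrays and depend on the probes chosen, so differences of dim genes are compressed. The methods print the threshold as a percentage, read here as 0.046, and 0.00046 was an alternative.

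The members and lists were chosen with earlier results of these data known. Named were all members, up to 4 called genes per list with the largest change, and the 3 genes most like each called member with a mean log2 intensity of at least 6. *Fasl* and *Cd44*, also called, were named beyond these. Genes that did not pass, markers and neighbours were named after their values were seen. 5 of 17 listed kinases and ligases and 1 of 22 bZIP genes had no probe set annotated to them alone. Promoter windows are RefSeq sequences on GRCm38.p6. Same-numbered arrays of the groups had deviations from their group means that correlated at 0.33, 0.44 and 0.47 over probe sets, against -0.38 to 0.06 for other numbers, so the labels' numbers were taken to pair the arrays. The labels call the arrays biological replicates, and p-values measure the spread between these samples. Alternatives were other thresholds, normalisations, priors, array weights, filters, probe set rules, the replicate block and leaving out each array. The fit without pairing was run on simulated data with independent noise for each probe set and array, so the simulation does not cover the replicate block. Python 3.11.15, pandas 2.3.3 and numpy 2.4.6 were used.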

Additional observations from a re-analysis of the deposited data

How the results depend on the processing

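Main counts were 2 genes (*Fosl2*, *Junb*) and 2 probe sets that rose and 1 (*Batf3*) that fell in limma. At an adjusted p under 0.00046 the counts were 0 genes and 0 probe sets that rose and 0 genes and 0 probe sets that fell. At an unadjusted p under 0.05, 6 genes and 7 probe sets were higher and 1 gene and 1 probe set lower. The share of all genes at that cut is not given here, so these counts are not read as a result about the subunits. At an adjusted p under 0.05, 4 probe sets rose. Without dim probe sets, 4 genes and 5 probe sets rose, and the same counts, 4 and 5, were found after quantile normalisation. Cyclic loess gave 5 genes and 6 probe sets that rose and 0 genes and 0 probe sets that fell. Array weights gave 5 and 6 that rose. The replicate block, which pairs the arrays, also gave 5 genes and 6 probe sets that rose. The share of all genes that rose is given above for the main fit and this block only. An intensity trend with a robust prior gave 0 genes and 0 probe sets that fell, and *Fosl1* passed in place of *Fosl2*. With 1 array left out, 1 to 4 genes and 1 to 5 probe sets rose and 0 to 1 genes and 0 to 1 probe sets fell. The most calls came without evGFP replicate 3, which left 4 genes that rose. Causes were not tested.

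Of 218 single values under alternatives, 173 kept direction and side of the threshold, 25 passed anew, 15 no longer passed and 5 reversed. The reversed values were *Fosb* at -0.10 and *Jund* at -0.03 without evGFP replicate 3 (ranges with 1 array left out -0.10 to 0.16 and -0.03 to 0.06), the dimmer *Fosl2* probe set at 0.01 without GFP-KLF2 replicate 1 (range -0.11 to 0.01), and *Jund* at -0.01 without GFP-KLF2 replicate 1 and at -0.01 without GFP-KLF2 replicate 2. None of these had been called. Of 100 differences between members 1 reversed, *Jun* minus *Junb*, at -0.10 without evGFP replicate 1 (range -0.10 to 0.71). Of 170 list counts 43 moved by more than 1.5 times. Only 3 arrays per group limit the precision, and signal near the lower end of the array limits *Fosb*.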
